A study of Mus musculus with 4 samples.

Results

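The cell cycle genes are a list of 39 genes chosen by symbol, 19 that work in S phase and 20 that work in G2 and M phase, out of 45706 genes in the table. All 39 were found under a single identifier. All 39 had at least 1 CPM (counts per 1000000, after scaling) in each of the 4 libraries, and 17332 of the 45706 genes had it in at least 1 library. The S phase genes encode the 6 MCM subunits (Mcm2 to Mcm7), Pcna, Cdc45, Cdc6, Cdt1, Gins2, Rrm1, Rrm2, Tyms, Chaf1b, Ccne1, Ccne2, E2f1 and Uhrf1. The G2 and M phase genes are Mki67, Top2a, Ccna2, Ccnb1, Ccnb2, Cdk1, Cdc20, Bub1, Bub1b, Aurka, Aurkb, Plk1, Birc5, Cenpa, Cenpe, Cenpf, Kif11, Kif20a, Tpx2 and Foxm1.

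The study measured polyadenylated RNA in mouse digit tips, taken whole while regenerating at 14 days post amputation, with strand-specific 150 bp paired reads. It had 4 groups of 1 library each: a wildtype, a conditional knockout (cKO) of Sp6, a cKO of Sp8 and a cKO of both, written Sp6+Sp8. Sp6 and Sp8 are zinc finger transcription factors of the limb and skin ectoderm. Deletion was induced by 75 mg/kg tamoxifen daily for 5 days followed by 5 days of rest. The labels do not say whether the wildtype mouse received tamoxifen, and all groups received meloxicam at 5 to 10 mg/kg for 48 hours after surgery. The sources used here do not give the Cre driver, strain, age, sex or the number of digits or mice behind each library. The surgery notes describe amputation through the distal and through the middle phalanx without tying either to a group. The wildtype library was labelled batch 3 and the 3 cKO libraries batch 1, so in each contrast with the wildtype, knockout and batch cannot be told apart. Contrasts of 1 cKO library with another stay inside batch 1.

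Cells that divide pass through S phase, in which DNA is copied, and then through G2 and mitosis, in which the copies are separated. Genes of the first group are switched on late in G1 by E2F factors bound at their promoters. Genes of the second group are transcribed later, in large part through CHR and CCAAT elements bound by the DREAM and MMB complexes, NF-Y and FOXM1. In a regenerating digit tip both programmes come from dividing cells of the blastema, the wound epidermis, the nail matrix and the blood lineages, which whole tissue RNA mixes.

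The promoters of the S phase members mostly held E2F letters, and those of the G2 and M members mostly held CHR letters. RefSeq promoter windows (GRCm38.p6) of 300 bases, 250 before and 50 after the gene start, were matched by symbol for 31 of 39 members, 16 S phase genes with 18 promoters and 15 G2 and M genes with 15. The members not matched were Mcm4, Gins2, Ccne2, Ccna2, Aurkb, Kif20a, Tpx2 and Foxm1. E2F letters were searched as the run TTCCCGC, with the variant TTGGCGC, the variant TTCGCGC and the variant TTGCCGC. CHR letters were TTTGAA or its variant TTCGAA, which is its own reverse complement. The run CCAAT and the GC box, spelled GGGCGG, were also searched, all on both strands, and matches of any kind may overlap. E2F letters were found in 12 of 18 S phase promoters (66.7%) and 3 of 15 G2 and M promoters (20%), against 15.0% of the 14568 promoters of genes with at least 1 CPM and 9.57% of all 32851 promoters. The S phase windows without them were those of Ccne1, Cdc45, E2f1, Mcm2, Pcna and Tyms. CHR letters showed the opposite split, with 3 of 18 S phase promoters (16.7%) and 12 of 15 G2 and M promoters (80%), against 14.3% and 19.2%. A CCAAT match was present in 12 of 18 S phase promoters and in 14 of 15 G2 and M promoters (93.3%), against 36.9% of promoters of genes with at least 1 CPM. CCAAT and CHR letters occurred together in 12 of 15 G2 and M promoters and in 3 of 18 S phase promoters, against 5.76%. The GC box was about as frequent in both lists, in 15 of 18 and 13 of 15 promoters, against 58.5%. A match describes letters in a window and not binding by a factor.

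**Figure D1:**
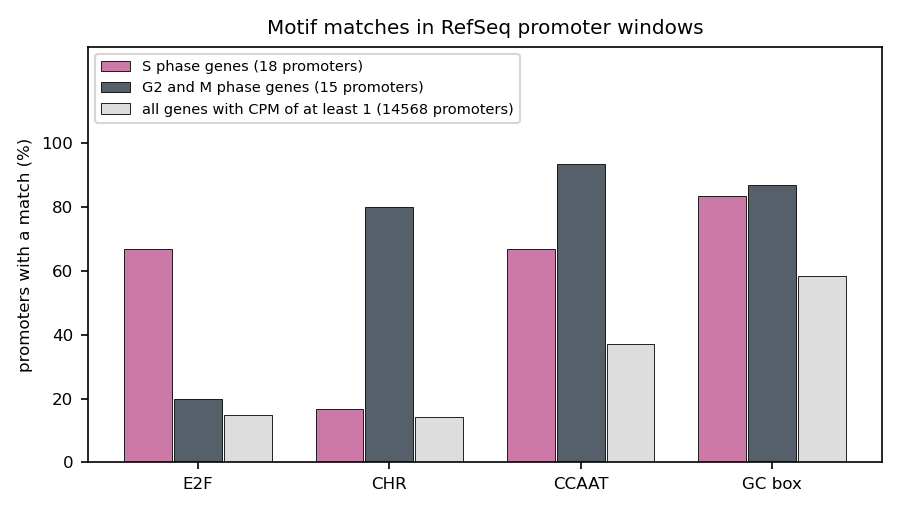
Share of RefSeq promoter windows (vertical axis, %) with at least 1 match to each of 4 motifs (horizontal axis), for S phase members, G2 and M members and all genes with at least 1 CPM. E2F letters stand at 66.7% in the S phase bar and 20% in the G2 and M bar, and CHR letters at 16.7% and 80%.

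The 170 bases before the RefSeq start are shown for some members, in lower case, 5′ to 3′ on the strand of the gene. E2F, CHR and CCAAT matches are in capitals. The annotated gene start had to lie at or downstream of the RefSeq start, so other members with such letters are left out. A window also had to hold the letters of its own list, E2F for S phase and CHR for G2 and M genes. Their presence below was thus fixed by this choice. In the first 3, all S phase genes, E2F letters are present and CHR letters are not. The Mcm5 window holds 3 E2F matches near its 5′ end, and the Mcm6 window holds 4, in a pair of runs where matches on opposite strands overlap.
Mcm5 (chr8:75109339-75109508, plus strand): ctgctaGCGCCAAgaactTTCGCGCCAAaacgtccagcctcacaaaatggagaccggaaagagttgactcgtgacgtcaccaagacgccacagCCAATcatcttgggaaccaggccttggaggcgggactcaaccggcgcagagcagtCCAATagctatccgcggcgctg
Mcm6 (chr1:128359706-128359875, minus strand): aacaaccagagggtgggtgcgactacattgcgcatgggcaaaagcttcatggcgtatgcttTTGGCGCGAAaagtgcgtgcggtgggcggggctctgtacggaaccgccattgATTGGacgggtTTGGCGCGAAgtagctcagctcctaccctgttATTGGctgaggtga
Rrm1 (chr7:102441525-102441694, plus strand): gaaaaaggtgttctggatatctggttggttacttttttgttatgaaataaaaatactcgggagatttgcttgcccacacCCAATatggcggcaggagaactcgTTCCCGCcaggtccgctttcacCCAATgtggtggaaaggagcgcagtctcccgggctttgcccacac
In the other 4, G2 and M genes, the CHR letters occur as TTTGAA, as its variant TTCGAA or as the reverse complement TTCAAA. Top2a holds 3 CHR and 4 CCAAT matches, and Ccnb2 holds 3 CCAAT matches spaced along the window. Mki67 carries both kinds, with 2 CHR matches and 1 E2F match.
Mki67 (chr7:135716380-135716549, minus strand): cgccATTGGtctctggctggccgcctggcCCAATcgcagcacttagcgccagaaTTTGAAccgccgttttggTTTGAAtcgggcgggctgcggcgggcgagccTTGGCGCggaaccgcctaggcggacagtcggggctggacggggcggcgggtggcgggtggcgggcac
Top2a (chr11:99024190-99024359, minus strand): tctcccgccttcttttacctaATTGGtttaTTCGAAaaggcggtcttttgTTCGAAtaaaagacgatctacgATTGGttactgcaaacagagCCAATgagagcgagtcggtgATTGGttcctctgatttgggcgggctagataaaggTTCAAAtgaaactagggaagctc
Kif11 (chr19:37376212-37376381, plus strand): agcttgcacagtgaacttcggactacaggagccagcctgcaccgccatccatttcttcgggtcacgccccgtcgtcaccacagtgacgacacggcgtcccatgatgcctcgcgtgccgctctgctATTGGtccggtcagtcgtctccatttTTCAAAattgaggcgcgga
Ccnb2 (chr9:70421555-70421724, minus strand): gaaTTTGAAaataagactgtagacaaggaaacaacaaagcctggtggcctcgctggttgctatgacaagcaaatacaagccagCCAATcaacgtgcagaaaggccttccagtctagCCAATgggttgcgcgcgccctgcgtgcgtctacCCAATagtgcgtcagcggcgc

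Library totals ran from 12588511 to 21834883 estimated counts, and the 4 scaling factors from 0.988 to 1.02. Sp6 stood at 97.7, 29.2, 95.6 and 57.8 CPM in the wildtype, Sp6, Sp8 and Sp6+Sp8 libraries, and Sp8 at 63.9, 66.1, 16.8 and 13.4 CPM. The targeted gene was therefore lowest in a library labelled for its deletion, while the Sp6+Sp8 library kept more Sp6 RNA than the Sp6 library. Keratinocyte and fibroblast markers were abundant in every library, and muscle markers summed to at most 0.64 CPM. With 1 library per group no difference has a replicate check and no p-value is given. Intervals are exact (Clopper-Pearson) 95% intervals of a ratio or share and cover counting error only. Values for the 4 libraries are given below in the order wildtype, Sp6 cKO, Sp8 cKO, Sp6+Sp8 cKO.

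The members as a whole made up 0.123%, 0.123%, 0.119% and 0.128% of all counts, which is 26798, 16033, 15039 and 19319 counts. The total share of the cell cycle genes was thus nearly level across genotypes, while its make-up was not. S phase genes contributed 32.4% (31.8 to 32.9) of the members' counts in the wildtype, 37.7% (36.9 to 38.4) in Sp6 cKO, 36.5% (35.7 to 37.3) in Sp8 cKO and 36.9% (36.3 to 37.6) in Sp6+Sp8 cKO. The wildtype interval lay below all 3 cKO intervals, and the cKO intervals overlapped each other. Summed over the list, S phase genes stood at 399, 468, 436 and 464 CPM, lowest in the wildtype. Summed G2 and M genes stood at 833, 775, 758 and 792 CPM, highest in the wildtype. Mki67 alone supplied 40.4%, 41.6%, 41.4% and 40.0% of the G2 and M counts. In bulk tissue, fewer cells in a phase and less RNA per cell cannot be told apart.

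**Figure D2:**
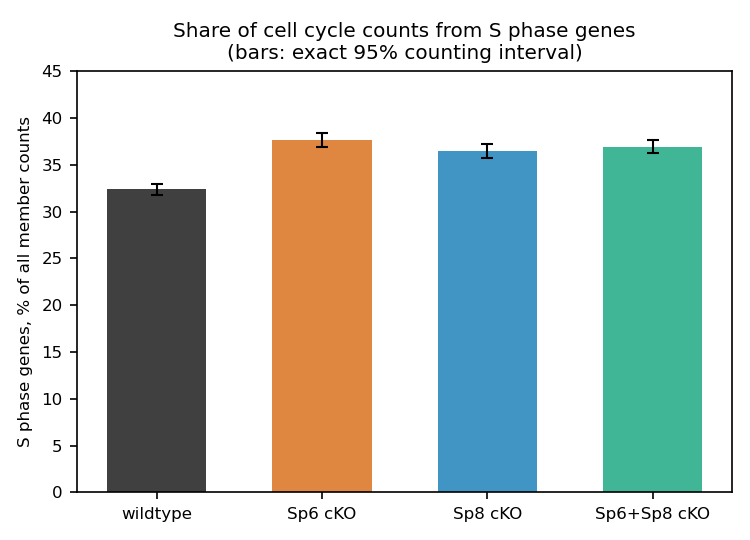
Share of the members' counts that came from the 19 S phase genes (vertical axis, %, from 0) in each of the 4 libraries; bars are exact 95% counting intervals. The wildtype library sits at 32.4% and the 3 cKO libraries between 36.5% and 37.7%.

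Gene by gene, the shift was small and spread over both lists, but slight for the G2 and M genes in Sp6+Sp8 cKO. Against the wildtype, on the log2 CPM scale with a prior count of 2, the median S phase gene was 0.22 higher in Sp6 cKO, 0.13 higher in Sp8 cKO and 0.20 higher in Sp6+Sp8 cKO. The median G2 and M gene differed by -0.15, -0.15 and -0.04 in the same comparisons, and the median of all genes compared by -0.01, -0.01 and -0.02. The difference between the list medians, which a rescaling of whole libraries leaves almost as it is, was 0.36, 0.28 and 0.24. S phase genes were above 0 in 16, 15 and 17 of 19 cases, and G2 and M genes below 0 in 18, 19 and 12 of 20, where 51.5%, 51.7% and 51.9% of all genes were below 0. Of all pairs of an S phase with a G2 and M gene, the S phase gene had the higher log2 ratio in 91.6%, 94.5% and 89.2%. These 3 comparisons share the wildtype library and are not independent of each other.

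**Figure D3:**
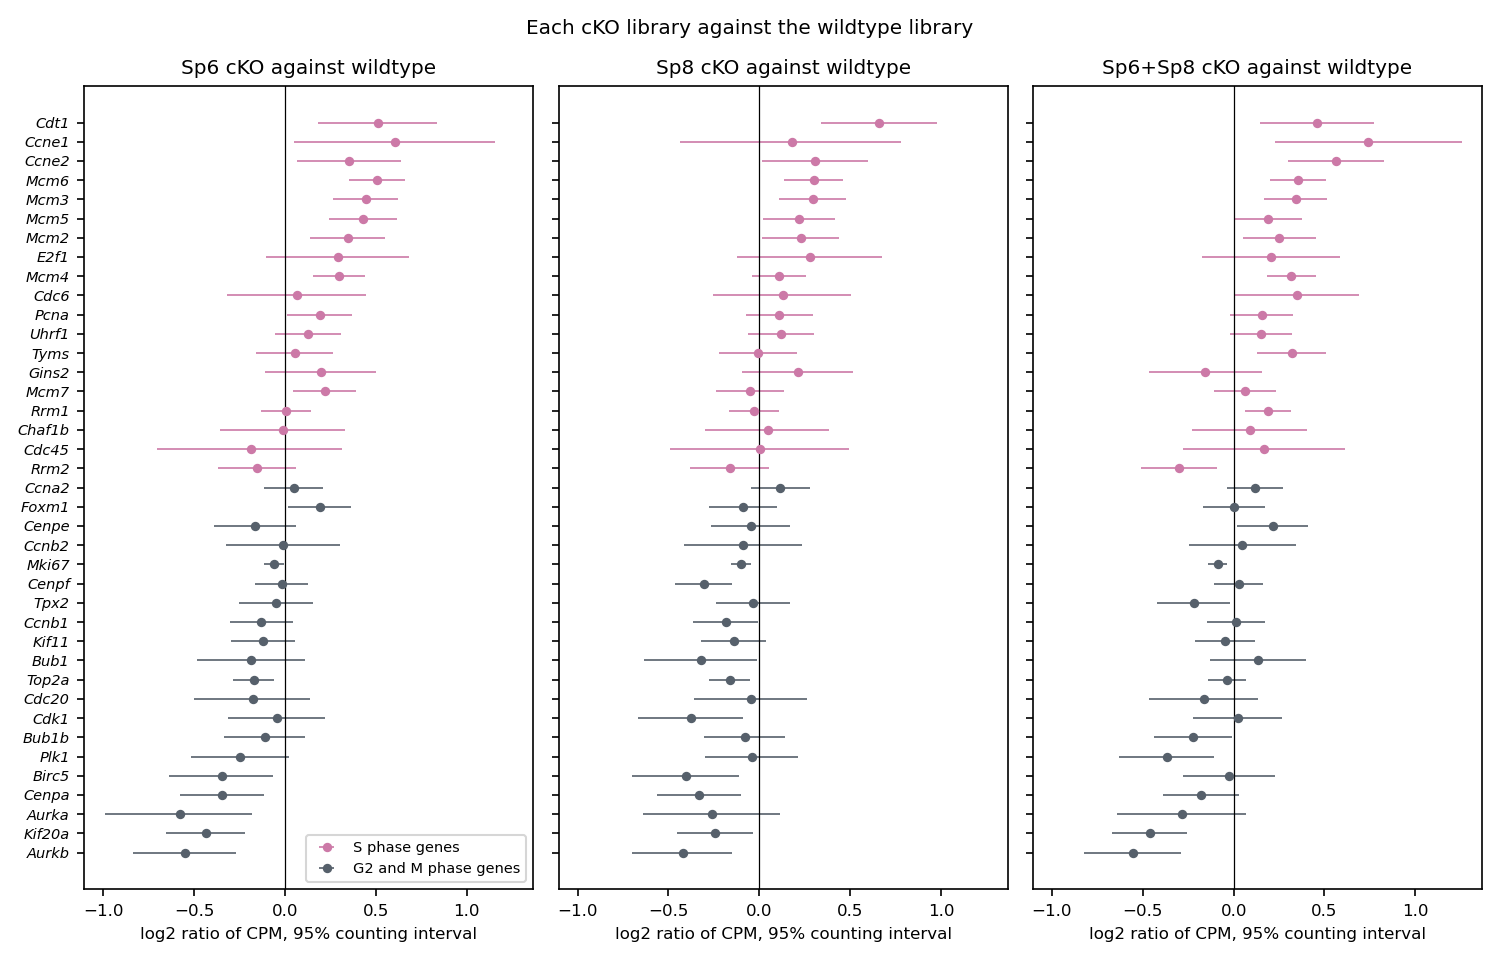
Log2 ratio of CPM for each member (rows) in each cKO library against the wildtype library, with exact 95% counting intervals; the 19 S phase genes and the 20 G2 and M genes are coloured separately and the vertical line marks no difference. Rows are ordered within each list by the mean of the 3 log2 differences, so Cdt1 and Ccne1 head the S phase genes and Aurkb, Kif20a and Aurka end the G2 and M genes. Most S phase genes lie right of the line and most G2 and M genes left of it.

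Few single members passed a size rule. A gene was called when its log2 difference reached 1.5-fold, it had at least 1 CPM in a library compared and its counting interval excluded a ratio of 1. In Sp6 cKO against the wildtype this called 0 of 39 members, against 4.83% of all genes higher and 4.26% lower. In Sp8 cKO it called Cdt1 alone, higher, against 5.03% and 3.13%. In Sp6+Sp8 cKO it called Ccne1 alone, higher, against 6.73% and 7.05%. At a smaller rule, a log2 difference of 0.32, 7 S phase genes were higher and 5 G2 and M genes lower in Sp6 cKO (8.58% and 7.92% of all genes), 1 and 4 in Sp8 cKO (8.77% and 6.44%), and 6 and 3 in Sp6+Sp8 cKO (12.9% and 14.2%). No S phase gene was lower and no G2 and M gene higher by this smaller rule in any of the 3. With the interval alone as the rule, 10, 6 and 11 of 19 S phase genes were higher, where 15.9%, 14.8% and 21.8% of all genes were. By the same rule 7, 10 and 6 of 20 G2 and M genes were lower, where 15.9%, 14.9% and 24.2% of all genes were. An interval excludes 1 more easily at higher counts, and all genes were not matched to the members in level. At 2-fold 0 of 39 members were called in each of the 3, against a background of 2.24% higher and 2.16% lower in Sp6 cKO, 2.27% and 1.55% in Sp8 cKO, and 2.84% and 2.95% in Sp6+Sp8 cKO. By the interval rule the exceptions in direction were Rrm2, lower in Sp6+Sp8 cKO, Foxm1, higher in Sp6 cKO, and Cenpe, higher in Sp6+Sp8 cKO.

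The wildtype was the lowest of the 4 libraries for 12 of 19 S phase genes and for 1 of 20 G2 and M genes, against 23.9% of all genes. It was the highest for 12 of 20 G2 and M genes and for 1 of 19 S phase genes, Rrm2, against 26.9% of all genes. The median range of log2 CPM over the 4 libraries was 0.34 for S phase genes and 0.31 for G2 and M genes, below the 0.39 of all genes. Over the 3 cKO libraries alone, a smaller set, it was 0.21 and 0.19, against 0.31 for all genes. Here too all genes were not matched to the members in level.

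**Figure D4:**
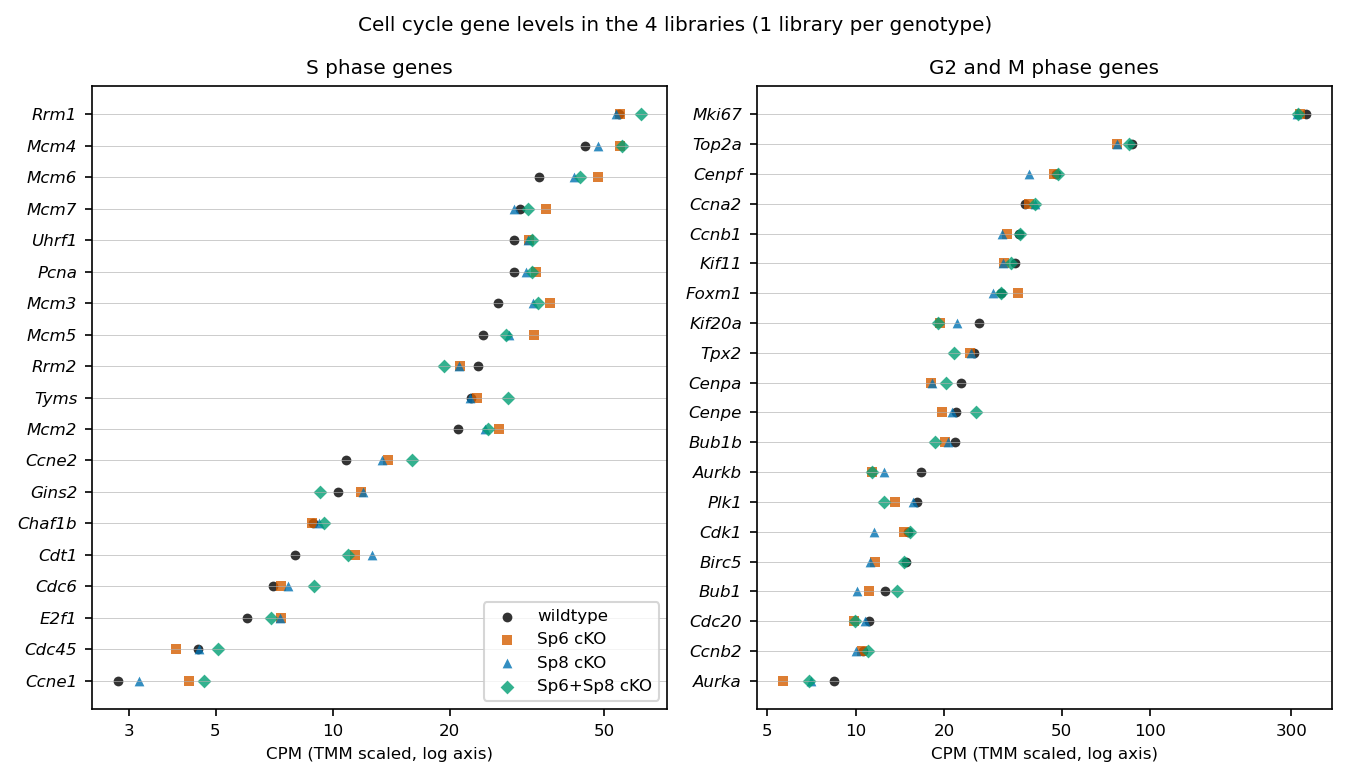
CPM of each member (rows; horizontal log axis) in the 4 libraries, 1 point per library, S phase genes at left and G2 and M genes at right. The wildtype point is the leftmost for 12 of 19 S phase genes and the rightmost for 12 of 20 G2 and M genes, and the points of most genes lie close together.

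The replicative helicase genes were above the wildtype in nearly every comparison with it. MCM2 to MCM7 form the ring that is loaded at origins in G1 and unwinds DNA in S phase. Mcm6 (chromosome 1, 128331590 to 128359664, minus strand) stood at 33.9, 48.2, 41.8 and 43.4 CPM. Mcm3 stood at 26.7, 36.3, 32.7 and 33.8 CPM, and both genes were lowest in the wildtype and highest in Sp6 cKO. Mcm6 was 1.42-fold (1.28 to 1.58) higher than the wildtype in Sp6 cKO, 1.23-fold (1.10 to 1.38) in Sp8 cKO and 1.28-fold (1.15 to 1.42) in Sp6+Sp8 cKO. Mcm3 was 1.36-fold (1.20 to 1.54), 1.23-fold (1.08 to 1.39) and 1.27-fold (1.12 to 1.43) higher. For both genes all 3 intervals excluded 1. Mcm5 stood at 24.4, 32.9, 28.4 and 27.9 CPM, and Mcm2 at 21.1, 26.8, 24.7 and 25.1 CPM. Mcm4 stood at 44.6, 54.8, 48.0 and 55.6 CPM. The wildtype was again lowest for these 3 genes. Mcm7, at 30.4, 35.4, 29.4 and 31.8 CPM, was the exception, since its lowest library was Sp8 cKO. The median log2 difference of the 6 genes from the wildtype was 0.38, 0.22 and 0.28, with 6, 5 and 6 of 6 above 0.

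Within batch 1, Sp6 cKO was the highest library for 5 of the 6 MCM genes, with Mcm4 the exception. In Sp8 cKO, Mcm7 was 1.20-fold (1.05 to 1.38) lower than in Sp6 cKO, and Mcm4, Mcm5 and Mcm6 were also lower with intervals that excluded 1. In Sp6+Sp8 cKO, Mcm5 was 1.18-fold (1.03 to 1.35) below its Sp6 cKO level. The balance among subunits, taken from CPM per kb of exon, changed little. Mcm4 supplied 29.0%, 27.6%, 27.7% and 30.0% of the 6 subunits' level per kb, and Mcm2, the lowest, 7.07%, 6.95%, 7.34% and 6.99%. Mcm7 went from 16.0% in the wildtype to 14.4%, 13.7% and 13.9%, and Mcm6 from 17.0% to 18.7%, 18.5% and 18.0%. Exon length here is the union of annotated exons, which understates genes with long, rarely used exons.

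The loaders of that helicase were also higher in the cKO libraries. Cdt1 (chromosome 8, 122568015 to 122573554, plus strand), which brings the MCM ring to origins, stood at 8.0, 11.4, 12.6 and 11 CPM. The wildtype was its lowest library by a clear step. The fold over the wildtype was 1.42 (1.14 to 1.78) in Sp6 cKO, 1.58 (1.26 to 1.97) in Sp8 cKO and 1.37 (1.10 to 1.71) in Sp6+Sp8 cKO. Cdc6, the ATPase that works with Cdt1, stood at 7.04, 7.37, 7.70 and 8.97 CPM, and only its Sp6+Sp8 ratio of 1.27 (1.01 to 1.61) had an interval clear of 1. Cdc45 and Gins2, which join MCM to make the active helicase, moved little against the wildtype. Cdc45 stood at 4.51, 3.95, 4.52 and 5.07 CPM. Gins2 stood at 10.3, 11.9, 12.0 and 9.29 CPM, with Sp6+Sp8 cKO lowest. In the Sp6+Sp8 library Gins2 was 1.28-fold (1.01 to 1.61) below Sp6 cKO and 1.29-fold (1.02 to 1.63) below Sp8 cKO.

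The sliding clamp, nucleotide supply and chromatin genes spanned a narrower range. Pcna, the clamp that holds polymerases on DNA, stood at 29.2, 33.3, 31.5 and 32.5 CPM, lowest in the wildtype, with an interval that excluded 1 in Sp6 cKO alone (1.14-fold, 1.01 to 1.29). Its processed pseudogene copy Pcna-ps2 was assigned 193, 82.2, 105 and 187 estimated counts, so reads may be split between them. With that copy added, Pcna stood at 38.1, 39.7, 39.9 and 44.6 CPM, and the wildtype remained lowest. The highest library was then Sp6+Sp8 cKO in place of Sp6 cKO, so the interval above holds only for Pcna without the copy. Tyms, which makes thymidylate, stood at 22.7, 23.6, 22.6 and 28.3 CPM, higher in Sp6+Sp8 cKO than in the other 3. Rrm1, the large subunit of ribonucleotide reductase, stood at 54.5, 54.7, 53.5 and 62.2 CPM, with the same library highest. Its partner Rrm2, the subunit whose amount follows the cell cycle, stood at 23.7, 21.3, 21.2 and 19.3 CPM. Rrm2 went against its list, being highest in the wildtype and 1.23-fold (1.06 to 1.42) lower in Sp6+Sp8 cKO. Chaf1b, a histone chaperone subunit, stood at 8.92, 8.84, 9.21 and 9.49 CPM. Uhrf1, which reads hemimethylated DNA behind the fork, stood at 29.3, 31.9, 31.8 and 32.5 CPM. Neither of these chromatin genes had an interval that excluded 1 in any of the 3 comparisons with the wildtype.

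The regulators of S phase entry included Ccne1, the S phase member with the widest range of log2 CPM, 0.71. Ccne1 (chromosome 7, 38097984 to 38107534, minus strand) encodes cyclin E1, which activates CDK2 at the G1 to S transition, and stood at 2.81, 4.26, 3.18 and 4.68 CPM. It was low in the wildtype and Sp8 cKO and higher in both libraries labelled for Sp6 deletion. Within batch 1 these steps did not clear counting error. Ccne1 was 1.34-fold lower in Sp8 cKO than in Sp6 cKO, with an interval of 0.88 to 2.07. In Sp6+Sp8 cKO it was 0.54 above Sp8 cKO on the log2 scale, also with an interval that included 1. The fold over the wildtype was 1.52 (1.04 to 2.23) in Sp6 cKO, 1.13 in Sp8 cKO with an interval that included 1, and 1.67 (1.17 to 2.39) in Sp6+Sp8 cKO. The Sp6 cKO value missed the 1.5-fold rule at a log2 difference of 0.58, the nearest member outside it. The rule uses log2 CPM with the prior count of 2, while the fold of 1.52 is a ratio of CPM without it. Ccne2, its paralog, stood at 10.9, 13.9, 13.4 and 16.1 CPM, with the wildtype lowest and Sp6+Sp8 cKO highest. Ccne2 was 1.28-fold (1.05 to 1.56), 1.24-fold (1.01 to 1.51) and 1.48-fold (1.23 to 1.78) higher than the wildtype. E2f1, an activating E2F and a target of its own family, stood at 6.03, 7.37, 7.30 and 6.95 CPM, lowest in the wildtype but with all 3 intervals including 1.

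Among the G2 and M genes the mitotic kinases and survivin had the lowest medians by role against the wildtype. Aurkb (chromosome 11, 69045647 to 69051664, plus strand), the kinase of the chromosomal passenger complex, stood at 16.7, 11.4, 12.5 and 11.4 CPM. The wildtype was its highest library by a clear step. Aurkb was 1.46-fold (1.21 to 1.79) lower than the wildtype in Sp6 cKO, 1.34-fold (1.11 to 1.63) lower in Sp8 cKO and 1.47-fold (1.22 to 1.77) lower in Sp6+Sp8 cKO. Aurka (chromosome 2, 172356190 to 172370535, minus strand), the kinase of spindle poles, stood at 8.46, 5.66, 7.07 and 6.95 CPM, also highest in the wildtype. Its Sp6 cKO ratio, 1.5-fold (1.13 to 1.99) lower, had an interval that excluded 1, and the other 2 did not. Plk1, a kinase needed for mitotic entry and exit, stood at 16.1, 13.6, 15.6 and 12.5 CPM and was 1.29-fold (1.08 to 1.55) lower in Sp6+Sp8 cKO. Birc5, survivin, the partner of Aurkb in the passenger complex, stood at 14.8, 11.6, 11.2 and 14.6 CPM. Its pattern differed from that of Aurkb, since Sp6+Sp8 cKO lay next to the wildtype. Birc5 was 1.27-fold (1.05 to 1.56) lower in Sp6 cKO and 1.32-fold (1.08 to 1.62) lower in Sp8 cKO. The median of these 4 genes differed from the wildtype by -0.45, -0.33 and -0.32 on the log2 scale.

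Spindle motors and the spindle factor Tpx2 were also mostly highest in the wildtype. Kif20a (chromosome 18, 34624613 to 34633277, plus strand), a kinesin of cytokinesis, stood at 26.1, 19.3, 22.1 and 19.0 CPM. It was 1.35-fold (1.16 to 1.58), 1.18-fold (1.02 to 1.37) and 1.38-fold (1.19 to 1.59) lower than the wildtype, and its 3 intervals excluded 1. Kif11, the motor that pushes spindle poles apart, stood at 34.8, 31.9, 31.5 and 33.7 CPM, a narrow range. Tpx2, which activates Aurka on the spindle, stood at 25.2, 24.3, 24.6 and 21.6 CPM, lowest in Sp6+Sp8 cKO.

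Centromere genes did not move as a block. Cenpa, the centromeric histone, stood at 22.9, 18.0, 18.2 and 20.2 CPM and was 1.27-fold (1.09 to 1.49) lower in Sp6 cKO and 1.26-fold (1.07 to 1.48) lower in Sp8 cKO. Cenpf, a large outer kinetochore protein, stood at 47.8, 47.2, 38.7 and 48.7 CPM, low in Sp8 cKO alone. Cenpe, a kinetochore motor, stood at 22, 19.6, 21.3 and 25.5 CPM, highest in Sp6+Sp8 cKO. Between Sp6 cKO and Sp6+Sp8 cKO, Cenpe was 1.30-fold (1.11 to 1.53) higher in the latter. The checkpoint gene Bub1 stood at 12.6, 11.1, 10.1 and 13.8 CPM, with Sp8 cKO lowest and Sp6+Sp8 cKO highest. Bub1b, its relative in the mitotic checkpoint complex, stood at 21.8, 20.2, 20.6 and 18.7 CPM. Cdc20, the activator of the anaphase-promoting complex, stood at 11.1, 9.85, 10.8 and 9.94 CPM. The 3 checkpoint genes were thus not ordered alike over the libraries.

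The cyclins and CDK1 that drive mitosis, and the abundant markers of dividing cells, differed less. Ccna2, cyclin A2, active in S phase as well as G2, stood at 37.4, 38.7, 40.6 and 40.6 CPM, and was the 1 member of its list with the wildtype lowest. Ccnb1 stood at 35.7, 32.6, 31.4 and 36.0 CPM, and Ccnb2 at 10.6, 10.5, 10.0 and 11 CPM. Cdk1, the kinase they activate, stood at 15.0, 14.6, 11.6 and 15.3 CPM, low in Sp8 cKO alone, where it was 1.30-fold (1.06 to 1.59) lower than in the wildtype. Mki67 (chromosome 7, 135689784 to 135716361, minus strand), the coat protein of mitotic chromosomes used to stain dividing cells, stood at 337, 322, 314 and 317 CPM. Its wildtype value was the highest, by 1.044-fold (1.005 to 1.085), 1.07-fold (1.03 to 1.11) and 1.06-fold (1.02 to 1.10), and the counting intervals exclude 1 because the gene has many counts. Top2a, the topoisomerase that untangles sister DNA, stood at 86.5, 76.8, 77.2 and 84.4 CPM, with Sp6+Sp8 cKO near the wildtype. Foxm1, the transcription factor of the G2 and M programme, stood at 31.2, 35.6, 29.3 and 31.2 CPM, highest in Sp6 cKO. On the per-length scale, the highest mean levels were 14.1 CPM per kb for Mcm4, 13.2 for Pcna and 8.97 for Mcm6 among S phase genes. The same for G2 and M genes were 32.0 CPM per kb for Mki67, 9.63 for Ccna2 and 9.01 for Top2a.

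The lists separated in the 3 comparisons with the wildtype and not in the 3 within batch 1. Within batch 1 the difference between the S phase and the G2 and M medians was -0.06 for Sp8 cKO against Sp6 cKO, -0.10 for Sp6+Sp8 cKO against Sp6 cKO and -0.05 for Sp6+Sp8 cKO against Sp8 cKO. The S phase gene had the higher ratio in 36.8%, 39.7% and 50.8% of pairs. By the 1.5-fold rule, Sp8 against Sp6, Sp6+Sp8 against Sp6 and Sp6+Sp8 against Sp8 had 0 of 39 members called, against 3.35% of all genes higher and 2.67% lower, 4.61% and 4.93%, and 4.48% and 6.38%. At a log2 difference of 0.32 the members called were Cdk1, lower in Sp8 cKO than in Sp6 cKO (5.85% of all genes higher and 4.91% lower), and Cenpe, higher, with Gins2, lower, in Sp6+Sp8 against Sp6 cKO (9.38% and 10.5%). Against Sp8 cKO, Sp6+Sp8 cKO was higher in Tyms, Cdk1, Bub1, Birc5 and Cenpf and lower in Gins2 and Plk1 (9.81% and 12.5%). The interval rule gave 0, 6 and 10 members higher and 7, 3 and 2 lower, against 10.5% and 10.8%, 17.0% and 19.2%, and 18.1% and 20.8% of all genes. At 2-fold 0 members were called, against 1.75% and 1.35%, 1.89% and 2.08%, and 1.88% and 2.80%. In the last comparison Bub1 was 1.37-fold (1.10 to 1.72) higher, Cdk1 1.32-fold (1.07 to 1.63) and Birc5 1.30-fold (1.05 to 1.62). For both lists, cKO against wildtype and batch 1 against batch 3 cannot be told apart.

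The same split appeared in related genes that are no members, which share the libraries and are not independent evidence. Sgo1 and Knl1 of the mitosis list were measured under their older symbols Sgol1 and Casc5. Of 45 other replication genes, 37, 27 and 38 were above 0 against the wildtype, with median log2 differences of 0.20, 0.08 and 0.24. Of 52 other mitosis genes, 45, 43 and 37 were below 0, with medians of -0.19, -0.21 and -0.10. The difference between these medians was 0.39, 0.29 and 0.35 against the wildtype and -0.08, -0.04 and 0.12 within batch 1. The wildtype was the lowest library for 24 of 45 replication genes, against 23.9% of all genes, and the highest for 32 of 52 mitosis genes, against 26.9%. Past 1.5-fold the replication list had 1, 1 and 5 genes higher and 0, 1 and 0 lower. The mitosis list had 1, 1 and 2 higher and 3, 1 and 1 lower. Of all genes 4.83%, 5.03% and 6.73% were higher and 4.26%, 3.13% and 7.05% lower, so these counts alone do not show the split. Wdhd1, a replisome adaptor, stood at 9.80, 17.2, 17.9 and 16.4 CPM and was past the rule in all 3 comparisons. Spc24, a kinetochore subunit of the mitosis list, went against that list at 2.53, 4.96, 5.40 and 6.95 CPM and was also past the rule, higher, in all 3. Chek1, the checkpoint kinase of S phase, stood at 5.84, 6.59, 7.86 and 10.5 CPM. It was past the rule, higher, in Sp6+Sp8 cKO alone. Gmnn, the inhibitor of Cdt1, stood at 1.43, 1.47, 0.953 and 0.715 CPM, and was not called against the wildtype. Pttg1, securin, stood at 6.30, 8.68, 5.16 and 11.2 CPM, higher in Sp6+Sp8 cKO, and Cdc25c, the phosphatase that activates CDK1, at 5.24, 3.10, 4.45 and 4.94 CPM, lower in Sp6 cKO. Arhgap11a stood at 12.9, 10.6, 8.02 and 12.5 CPM, lower in Sp8 cKO.

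**Figure D5:**
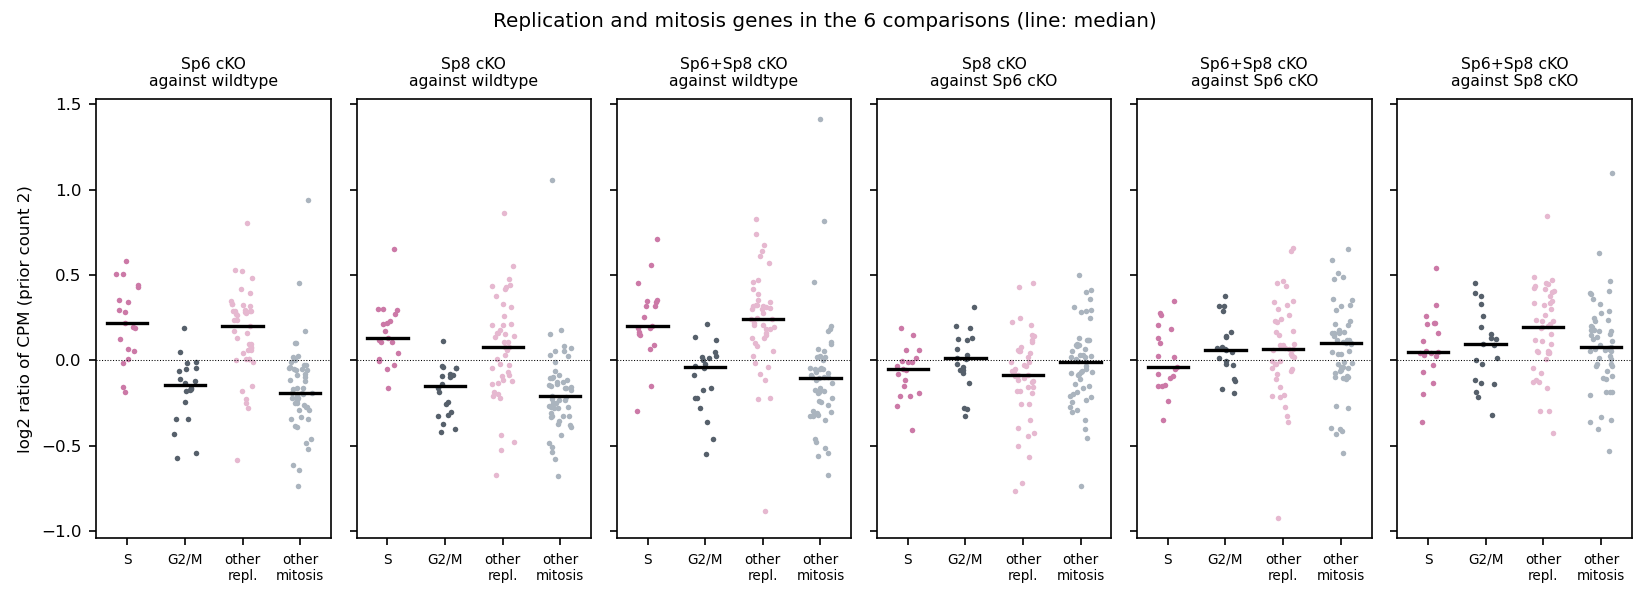
Log2 ratio of CPM (vertical axis) of every gene in the S phase, G2 and M, other replication and other mitosis lists in the 6 comparisons, 1 point per gene with the list median as a line. In the 3 panels against the wildtype the medians of the 2 replication lists lie above those of the 2 mitosis lists. S phase less G2 and M medians, and other replication less other mitosis medians, give 0.24 to 0.39 there. In the 3 panels within batch 1 the same differences run from -0.10 to 0.12.

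Upstream of S phase, G1 cyclins, their kinases and the Myc genes were mostly above the wildtype. Of 10 such genes 8, 7 and 9 were above 0, with medians of 0.20, 0.21 and 0.29, where 48.5%, 48.3% and 48.1% of all genes were above 0. Ccnd2, cyclin D2, stood at 266, 343, 342 and 384 CPM, and Ccnd3, cyclin D3, at 33.6, 41.9, 49.0 and 47.0 CPM. Myc, a driver of growth, stood at 62.8, 87.2, 83.8 and 90.5 CPM, and Mycn at 6.44, 8.30, 8.34 and 12.3 CPM. The wildtype was lowest for these 4 genes, and only Mycn in Sp6+Sp8 cKO passed the 1.5-fold rule. The 19 E2F, Rb and MuvB genes had medians of -0.05, -0.08 and 0.10, and Mybl1 alone was past the rule, higher in Sp6+Sp8 cKO at 8.32 against 5.47 CPM. E2f7, a repressive E2F, stood at 9.84, 13.6, 12.3 and 13.6 CPM, E2f3 at 18.2, 18.1, 20.4 and 23.5 CPM and E2f5 at 13.4, 13.1, 11.8 and 16.3 CPM. Of 14 inhibitors and arrest genes 13 were compared, with medians of -0.02, -0.02 and -0.06. Wee1, the kinase that holds back CDK1, stood at 11.1, 14.7, 14.5 and 23.8 CPM, and Cdkn1c, p57, at 6.03, 10.2, 6.51 and 11.7 CPM. Wee1 was past the rule, higher, in Sp6+Sp8 cKO, and Cdkn1c in both libraries labelled for Sp6 deletion. Cdkn2d, p19, was lower in Sp6+Sp8 cKO at 3.05 against 4.74 CPM, and Gadd45a stood at 19.4, 21.9, 18.3 and 14.0 CPM. Past 1.5-fold, 4.83%, 5.03% and 6.73% of all genes were higher than the wildtype and 4.26%, 3.13% and 7.05% lower. The few calls in these short lists therefore show no shift of a list.

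Markers of other cells moved with the genotypes too, and their part in the member values was not tested. Basal keratinocyte markers summed to 7643, 7134, 7284 and 7149 CPM, and the nail and hair matrix markers to 4094, 4433, 4958 and 2243 CPM. Of the 7 nail and hair matrix genes compared, 3, 1 and 7 were below the wildtype. Erythroid markers summed to 267, 339, 692 and 353 CPM and T cell markers to 3.17, 22.3, 6.99 and 19.6 CPM, each sum lowest in the wildtype. Of the 6 erythroid genes compared, however, 2, 0 and 2 were below the wildtype. Neutrophil and precursor markers summed to 52.3, 96.5, 75.3 and 111 CPM, but 4, 2 and 5 of the 7 compared were below the wildtype. S100a8, which skin also expresses, stood at 8.83, 50.2, 30.6 and 69.2 CPM, and the precursor gene Mpo at 15.8, 12.6, 17.1 and 6.17 CPM. B cell markers stayed at 1.93 to 2.30 CPM. Base composition moved with the 3 comparisons that hold the Sp6+Sp8 library. S phase genes had a median GC content of 51.9% and G2 and M genes 47.6%, against 49.6% for all genes. In Sp6+Sp8 cKO against the wildtype the median log2 difference of all genes ran from 0.14 in the fifth of genes with the lowest GC to -0.13 in the fifth with the highest. The same medians ran from 0.11 to -0.10 against Sp6 cKO and from 0.15 to -0.14 against Sp8 cKO, both within batch 1. In the other 3 comparisons these medians lay between -0.03 and 0.03. Taking each gene against the median of its GC decile, an alternative added after the data were seen, gave a difference between list medians of 0.38, 0.27 and 0.36 against the wildtype.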

How the data were processed

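RNA was sequenced from 4 libraries, 1 per genotype. The authors deposited estimated counts per gene, merged over libraries and given with decimals (84.6% to 87.1% of values were whole). Per the submitters' processing notes the tools were Trim Galore 0.6.4, STAR, Salmon, featureCounts, edgeR and deepTools with the genome build GRCm38, and no source used here names the annotation release. A further 1 column matched no listed sample and was not used. Identifiers were placed with GENCODE M21 (98.8% found), also used for coordinates and exon lengths.

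Counts were scaled with TMM factors (edgeR 4.0.16 in R 4.3.3) to CPM, and log2 CPM used a prior count of 2. Intervals of CPM ratios were exact 95% Clopper-Pearson intervals conditional on the sum of both counts, computed on rounded counts with scipy 1.17.1. A gene was compared where either library had at least 1 CPM and called at 1.5-fold with an interval that excluded 1. Alternatives were a log2 difference of 0.32 and 2-fold, DESeq2 1.42.0 size factors, library totals, another prior count (0.5), a CPM minimum of 5 or none, means or sums in place of medians, transcript in place of exon length, shorter lists and, added after the data were seen, GC and length deciles and leaving out members with shared reads. The calculation was tested on simulated data. Reads of 6 members (Mcm7, Pcna, Gins2, Ccne2, Ccna2, Kif20a) had non-whole counts beyond a tolerance of 0.05 in at least 1 library, so that some were shared with other transcripts.

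The members and lists were chosen with earlier results of these data known. Genes named with all values were, by rule, the 5 of each list with the widest range of log2 CPM, the 3 highest per kb and any past 1.5-fold; the other members were described by role, and up to 4 genes were named in each of 5 further lists. A gene that this rule names is not reported here.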

Additional observations from a re-analysis of the deposited data

How the results depend on the processing

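No replicate check was possible with 1 library per group, and no paired analysis was possible because each group has 1 library and the replicate numbers pair nothing. The difference between the S phase and the G2 and M medians kept its sign against the wildtype under every alternative, from 0.34 to 0.43 in Sp6 cKO, 0.26 to 0.33 in Sp8 cKO and 0.23 to 0.36 in Sp6+Sp8 cKO. Within batch 1 it ran from -0.07 to -0.03, from -0.12 to -0.03 and from -0.06 to 0.10. The last, -0.05 as reported, was positive with means (0.0038) and summed counts (0.028) in place of medians, and under the length decile (0.0095) and GC decile (0.10), both added after the data were seen. The median G2 and M gene in Sp6+Sp8 cKO against the wildtype, -0.04 as reported, was 0.0056 with library totals without the 20 most abundant genes. Its sign thus depended on the scaling. Counts of members past the fold rule followed the size of that rule. At a log2 difference of 0.32 they were 12, 5 and 9 against the wildtype in Sp6, Sp8 and Sp6+Sp8 cKO, and 1, 2 and 7 for Sp8 against Sp6, Sp6+Sp8 against Sp6 and Sp6+Sp8 against Sp8. At 2-fold they were 0 against the wildtype, in Sp8 as in Sp6+Sp8 cKO. DESeq2 size factors called 1 member, Ccne1, in Sp6 cKO against the wildtype. Library totals alone, and totals without the 20 most abundant genes, each called 2 in Sp6+Sp8 cKO, Ccne1 and Ccne2. The S phase share of member counts was 41.0%, 47.7%, 46.2% and 45.8% in the 4 libraries without the most abundant member of each list, and 42.9%, 49.6%, 47.8% and 47.6% over shorter lists. Both kept the wildtype lowest. By mean coding transcript length, 3 of the 5 highest S phase genes and 4 of the 5 highest G2 and M genes per kb were shared with the order by exon length. Depth limits the genes under 10 CPM most, such as Ccne1.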
